A study of Mus musculus with 15 samples.

Results

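The subunits of respiratory complex I, the NADH dehydrogenase of the mitochondrial inner membrane, were followed in the choroid plexus of mice null, heterozygous or wild-type for Add1, the gene of the membrane skeleton protein alpha-adducin. The genes were those whose platform symbol begins with Ndufa, Ndufb, Ndufc, Ndufs or Ndufv, or is Ndufab1. Ndufa4, now assigned to complex IV, and the Ndufaf assembly factors were left out. This gave 35 of the 19938 genes with a probe set of their own, and 34 of the 35 passed the filter on low signal. Ndufa4l2, a paralog of Ndufa4 that is not an established subunit, did not pass, with mean log2 signals of 4.72 ± 0.346 in null, 4.64 ± 0.149 in heterozygous and 4.62 ± 0.098 in wild-type animals (SD, n = 5 each). It is left out of every count below, so that the 34 tested genes are all nuclear subunits of complex I. Ndufb1 and Ndufb4 have no probe set that carries their symbol alone and were not analysed here.

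The animals were Add1 null, Add1 heterozygous and Add1 wild-type mice on the C57BL/6J background, 5 of each, aged 3 weeks and all labelled male. That age precedes the hydrocephalus of this model. The RNA came from dissected choroid plexus, and each mouse gave 1 whole-transcript array. The sources used here do not say which part of Add1 was altered, or in which cells. Add1 itself read 7.61 ± 0.162 in null, 7.76 ± 0.0996 in heterozygous and 7.92 ± 0.116 in wild-type animals (log2 signal, SD, n = 5 each), a null minus wild-type difference of -0.31 ± 0.0791 (SE, limma adjusted p = 0.024). Whether the probes lie in the altered part is not known, so this signal is only a partial check of the labels. Null arrays 1 and 5 carried Xist, the RNA of the inactive X chromosome of females, at 9.09 and 9.69, against 3.11 to 3.88 in the other 13 arrays, and this goes against their label. Of 3 male markers (Uty, Kdm5d and Eif2s3y), the median log2 deviation from wild-type means was -4.02 and -3.96 in null arrays 1 and 5. In the other 13 arrays it ran from -0.27 to 0.14. Values are therefore also given without null arrays 1 and 5. All 12 of the marker genes of the choroid plexus epithelium passed the filter, and their mean log2 level was 10.82 to 10.86 in null, 10.79 to 10.90 in heterozygous and 10.80 to 10.89 in wild-type arrays.

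Complex I takes electrons from NADH, passes them along a chain of iron-sulfur clusters to ubiquinone, and couples this to proton pumping. Its matrix arm holds the N module, where NADH is oxidised, and the Q module, where ubiquinone is reduced, and its membrane arm has a proximal and a distal part. Core subunits carry the catalysis and are shared with bacteria, while accessory subunits surround them and serve assembly and stability. The choroid plexus epithelium is rich in mitochondria and uses ATP for the ion transport behind cerebrospinal fluid secretion.

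All 34 subunits had a lower mean in null than in wild-type choroid plexus, and 12 of them fell past the threshold of an adjusted p under 0.05, with 0 higher (limma over all 10069 tested genes, Benjamini-Hochberg adjustment). Of all tested genes, 3.56% were called lower in this comparison, 4.17% were called higher, and 46% had a difference below 0. The median log2 difference of the subunits was -0.23, against 0.01 for all tested genes, and their range was -0.43 to -0.02. At the median, null animals held 85.3% of the wild-type signal. At an unadjusted p under 0.05 the count was 23 of 34, against 24% of all tested genes. Between bulk samples, fewer cells of a type and less RNA per cell cannot be told apart. Without null arrays 1 and 5 the median difference was -0.19 and 32 of 34 subunits lay below 0. Ndufb11 and Ndufb9, 2 of 34, were still called in that smaller fit, where 3.93% of all tested genes were.

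**Figure D1:**
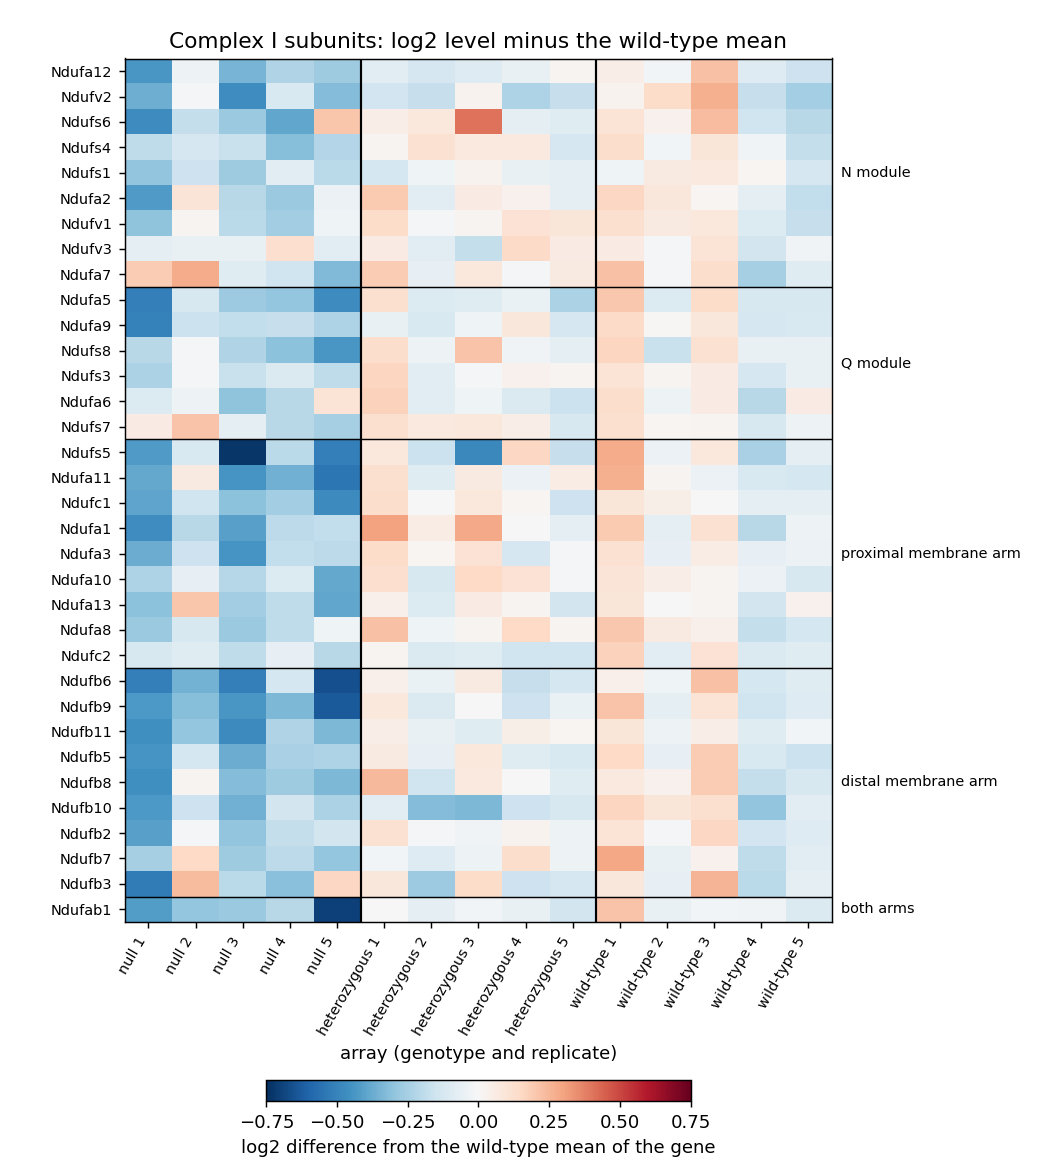
Log2 level of each of the 34 complex I subunits (rows, ordered by module) in each of the 15 arrays (columns, null at the left, heterozygous in the middle, wild-type at the right), minus the mean of the wild-type arrays for that gene. Null arrays 1, 3, 4 and 5 are mostly blue, null array 2 is close to white for many subunits, and heterozygous and wild-type arrays mix pale blue and red.

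The distal membrane arm, built around proton-pumping subunits encoded by mitochondrial DNA, had 4 of its 9 tested accessory subunits called lower in null animals, with a median difference of -0.27. Ndufb11 read 9.45, 9.62, 9.43, 9.68 and 9.57 in null arrays 1 to 5, 9.96, 9.85, 9.82, 9.95 and 9.92 in heterozygous arrays 1 to 5, and 10, 9.87, 9.96, 9.82 and 9.89 in wild-type arrays 1 to 5 (log2 signal). Every null array lay below every heterozygous and every wild-type array, and the heterozygous and wild-type arrays overlapped. Ndufb11 is an X-linked accessory subunit. The probe set used gave a difference between null and wild type of -0.36 ± 0.06 (SE, limma adjusted p = 0.00241), but its number is not among those of the X chromosome. A further probe set of the gene, numbered beside the X-linked Ndufa1, gave -0.14 and was not called. Ndufb9 read 7.89, 8.0, 7.88, 7.98 and 7.69 in null arrays 1 to 5, 8.40, 8.21, 8.32, 8.16 and 8.27 in heterozygous arrays 1 to 5, and 8.53, 8.25, 8.42, 8.17 and 8.22 in wild-type arrays 1 to 5 (log2 signal). For Ndufb9, an accessory subunit of the same part, the null arrays again lay below all others, with null array 5 the lowest. The difference from wild type was -0.43 ± 0.0774 (SE, adjusted p = 0.00339). Ndufb6 read 9.80, 9.96, 9.80, 10.18 and 9.65 in null arrays 1 to 5, and 10.35, 10.28, 10.53, 10.18 and 10.22 in wild-type arrays 1 to 5 (log2 signal). Null array 4 reached the lowest wild-type array for Ndufb6, while the other null arrays lay below. Its difference, -0.43 ± 0.0903 (SE, adjusted p = 0.00821), left 74.0% of the wild-type signal. Ndufb5 read 9.26, 9.57, 9.33, 9.46 and 9.47 in null arrays 1 to 5, and 9.85, 9.64, 9.89, 9.59 and 9.54 in wild-type arrays 1 to 5 (log2 signal). Null array 2 overlapped the wild-type range of Ndufb5, and the difference was -0.28 ± 0.0783 (SE, adjusted p = 0.0347).

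The other 5 subunits of the distal arm did not pass. Ndufb8 differed by -0.27 between null and wild type (limma adjusted p = 0.0819), Ndufb10 by -0.26 (adjusted p = 0.0763) and Ndufb2 by -0.20 (adjusted p = 0.107). Ndufb7 and Ndufb3 differed by -0.17 and -0.13. Ndufb10 was the dimmest subunit tested, with group means of 5.27 in null, 5.33 in heterozygous and 5.54 in wild-type animals, close to the filter's value of 5.33, where log2 differences are compressed.

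In the proximal membrane arm, 3 of 9 subunits were called lower, with a median difference of -0.27. Ndufc1 read 9.0, 9.25, 9.09, 9.14 and 8.92 in null arrays 1 to 5, and 9.49, 9.44, 9.40, 9.33 and 9.33 in wild-type arrays 1 to 5 (log2 signal). The null arrays of Ndufc1, a small accessory subunit, lay below all wild-type arrays, with null array 2 the highest of them. The difference was -0.32 ± 0.0689 (SE, limma adjusted p = 0.0103). Ndufa3 read 9.40, 9.62, 9.33, 9.59 and 9.58 in null arrays 1 to 5, and 9.89, 9.71, 9.83, 9.71 and 9.73 in wild-type arrays 1 to 5 (log2 signal). Ndufa3 likewise had no null array inside the range of wild-type arrays, and the difference was -0.27 ± 0.0697 (SE, adjusted p = 0.0263). Ndufa11 read 8.87, 9.32, 8.81, 8.89 and 8.71 in null arrays 1 to 5, and 9.52, 9.27, 9.21, 9.14 and 9.12 in wild-type arrays 1 to 5 (log2 signal). For Ndufa11, an accessory subunit that lies near complex III in respiratory supercomplexes, null array 2 stood inside the wild-type range and the other 4 null arrays below it. The difference was -0.33 ± 0.0991 (SE, adjusted p = 0.0487), while a further probe set of the gene gave -0.23 and was not called.

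Ndufa1, the second X-linked subunit, needed for assembly of the membrane arm, came closest to the threshold among those that missed it. Ndufa1 read 9.08, 9.34, 9.14, 9.35 and 9.36 in null arrays 1 to 5, 9.85, 9.60, 9.83, 9.55 and 9.48 in heterozygous arrays 1 to 5, and 9.74, 9.48, 9.66, 9.34 and 9.51 in wild-type arrays 1 to 5 (log2 signal). Null arrays 2, 4 and 5 reached the lowest wild-type arrays, and no null array reached a heterozygous one. The null minus wild-type difference was -0.29 ± 0.0906 (SE, limma adjusted p = 0.0567). Of the 2 null arrays with Xist signal, array 1 was the lowest for Ndufa1 and array 5 the highest. Ndufs5 had a larger difference, -0.40, with more spread within groups (SD 0.248 in null, 0.251 in heterozygous and 0.193 in wild-type animals) and an adjusted p of 0.0676. Ndufa10, Ndufa13, Ndufa8 and Ndufc2 differed by -0.20, -0.19, -0.18 and -0.13 and did not pass.

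In the Q module, 2 of 6 subunits were called lower, with a median difference of -0.19. Ndufa5 read 7.56, 7.95, 7.80, 7.78 and 7.60 in null arrays 1 to 5, and 8.27, 7.97, 8.21, 7.95 and 7.95 in wild-type arrays 1 to 5 (log2 signal). Null array 2 overlapped the wild-type arrays of Ndufa5, an accessory subunit of the matrix arm, and null arrays 1 and 5 were lowest. The difference was -0.33 ± 0.0884 (SE, limma adjusted p = 0.0297). Ndufa9 read 9.22, 9.56, 9.54, 9.55 and 9.49 in null arrays 1 to 5, and 9.87, 9.73, 9.81, 9.60 and 9.61 in wild-type arrays 1 to 5 (log2 signal). The arrays did not overlap for Ndufa9, the accessory subunit at the junction of the arms that binds NADPH, but null array 1 stood well below the other null arrays. The difference was -0.25 ± 0.0745 (SE, adjusted p = 0.0473), and without null array 1 it was -0.19. The core subunits of the module, Ndufs8, Ndufs3 and Ndufs7, of which Ndufs8 and Ndufs7 carry iron-sulfur clusters, differed by -0.24, -0.14 and -0.05 and did not pass. Ndufa6 differed by -0.11.

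In the N module, 2 of 9 subunits were called lower, with a median difference of -0.20. Ndufs1 read 9.47, 9.61, 9.5, 9.68 and 9.56 in null arrays 1 to 5, and 9.73, 9.83, 9.84, 9.78 and 9.64 in wild-type arrays 1 to 5 (log2 signal). Null array 4 reached into the wild-type range of Ndufs1, the largest core subunit and a carrier of iron-sulfur clusters. Its difference was -0.20 ± 0.0574 (SE, limma adjusted p = 0.0415). Ndufa12 read 8.02, 8.42, 8.11, 8.23 and 8.19 in null arrays 1 to 5, and 8.51, 8.44, 8.68, 8.36 and 8.30 in wild-type arrays 1 to 5 (log2 signal). Null array 2 lay within the wild-type range of Ndufa12, an accessory subunit, and the difference was -0.26 ± 0.0778 (SE, adjusted p = 0.0464). The core subunits Ndufv1, which binds NADH, and Ndufv2 differed by -0.15 and -0.26 and did not pass, and Ndufs4, Ndufs6 and Ndufa2 differed by -0.20, -0.22 and -0.17.

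The smallest differences of the complex also stood in the N module. Ndufa7 read 6.61, 6.70, 6.33, 6.27 and 6.09 in null arrays 1 to 5, 6.61, 6.36, 6.50, 6.41 and 6.49 in heterozygous arrays 1 to 5, and 6.64, 6.41, 6.55, 6.17 and 6.33 in wild-type arrays 1 to 5 (log2 signal). For Ndufa7 the genotypes overlapped over nearly their whole range, and the null minus wild-type difference was -0.02 ± 0.107 (SE, limma adjusted p = 0.929), with a 95% interval of -0.25 to 0.21. Ndufv3 differed by -0.03, with an interval of -0.17 to 0.11. Over the core subunits of both matrix modules, 1 of 6 was called (median difference -0.18), and over the accessory subunits 11 of 28 (median -0.26). The difference between core and accessory subunits, and that between modules, was not tested.

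Ndufab1, the mitochondrial acyl carrier protein, sits in both arms and was also called lower. Ndufab1 read 8.47, 8.60, 8.61, 8.68 and 8.19 in null arrays 1 to 5, and 9.10, 8.83, 8.87, 8.86 and 8.78 in wild-type arrays 1 to 5 (log2 signal). All null arrays lay below all wild-type arrays, with null array 5 far below and wild-type array 1 above the rest of their groups. The difference was -0.38 ± 0.0827 (SE, limma adjusted p = 0.0107). In all, 6 of 34 subunits had every null array below every wild-type array (Ndufb11, Ndufb9, Ndufc1, Ndufab1, Ndufa3 and Ndufa9), against 2.5% of all tested genes.

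**Figure D2:**
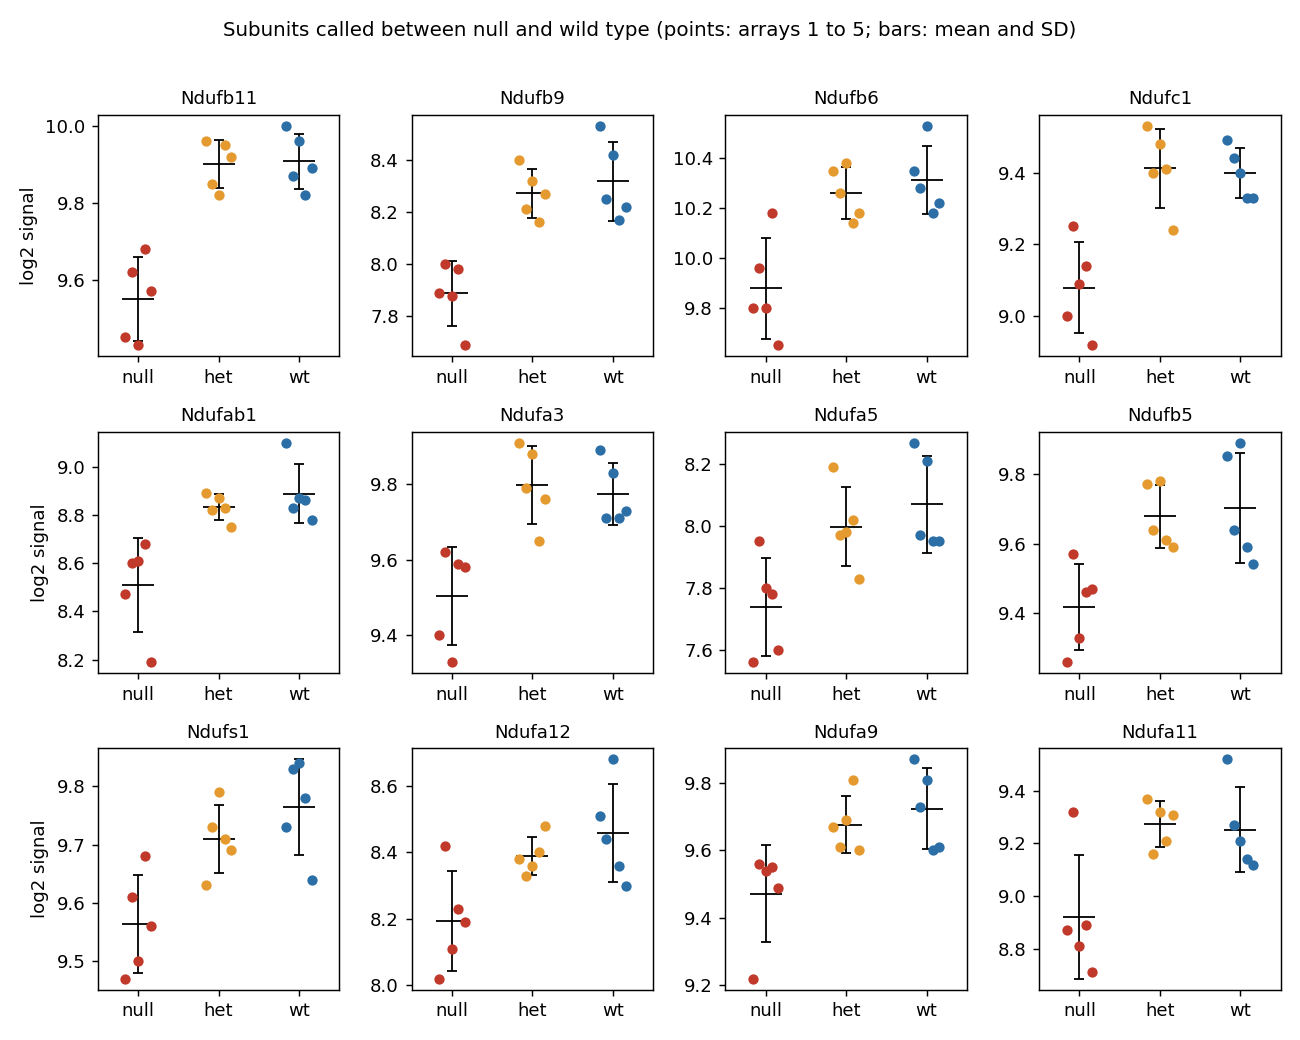
Log2 signal of the 12 subunits called between null and wild type, 1 panel per gene, with the 5 arrays of each genotype as points and the mean and SD as bars (null left, heterozygous middle, wild-type right). In each panel the null mean is the lowest and the heterozygous mean lies close to the wild-type mean.

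A few subunits had a further probe set. For Ndufc1 it gave a null minus wild-type difference of -0.49 (limma adjusted p = 0.00898, fitted over all probe sets), and for Ndufab1 -0.41 (adjusted p = 0.00918), both called like the first. For Ndufb11 the further probe set gave -0.14 (adjusted p = 0.446) and for Ndufa11 -0.23 (adjusted p = 0.261), so that the probe sets of these genes disagreed on the call while sharing its direction. Numbers of the probe sets used otherwise ran by chromosome. That of Ndufb11 lay between Ndufs5 on chromosome 4 and Ndufb2 on chromosome 6. That of Ndufa11 lay between Ndufa6 on chromosome 15 and Ndufv3 on chromosome 17. Their further probe sets lay beside Ndufa1 on X and Ndufa7 on chromosome 17. The further probe set of Ndufc1, a gene on chromosome 3, lay between Ndufa12 on chromosome 10 and Ndufs6 on chromosome 13. That of Ndufs3, a gene on chromosome 2, lay there too. Which locus is read by the probe sets used for Ndufb11 and Ndufa11 is not known. The same holds for the further probe sets of Ndufc1 and Ndufs3. Both probe sets of Ndufs3 were not called, at -0.14 and -0.18. A further 3 probe sets carry several symbols, naming Ndufb4 with Ndufb4b or Ndufs5 with its pseudogene, and were not used. Subunits with processed pseudogenes may share probes with them, which these values do not resolve.

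Promoters of the subunits were read from RefSeq's table for GRCm38.p6, where 31 of the 34 genes matched, with 33 entries of 250 bases before and 50 after the start. Motifs of factors named for nuclear mitochondrial genes were searched on both strands. Ndufa11 and Ndufa5 are shown because they were called lower and hold the consensus of NRF1, a factor of nuclear genes for mitochondrial proteins. Ndufb11 is shown because it had the smallest p of the complex and holds none of the motifs searched. For Ndufa11 and Ndufb11 the locus read by the called probe set is not known. Their further probe sets, numbered beside genes of chromosome 17 and of X, were not called. The upstream bases run from chr17:56717512-56717761 on the plus strand for Ndufa11, chr6:24527691-24527940 on the minus strand for the upstream start of Ndufa5, and chrX:20617620-20617869 on the minus strand for Ndufb11. Capitals mark the match to the NRF1 consensus and, in Ndufa11, also the cyclic AMP response element (CRE), TGACGTCA.
Ndufa11: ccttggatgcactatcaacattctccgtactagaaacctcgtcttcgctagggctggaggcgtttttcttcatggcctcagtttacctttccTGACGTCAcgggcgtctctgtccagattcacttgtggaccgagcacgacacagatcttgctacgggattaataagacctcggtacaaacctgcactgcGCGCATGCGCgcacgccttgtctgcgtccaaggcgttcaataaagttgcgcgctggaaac
Ndufa5: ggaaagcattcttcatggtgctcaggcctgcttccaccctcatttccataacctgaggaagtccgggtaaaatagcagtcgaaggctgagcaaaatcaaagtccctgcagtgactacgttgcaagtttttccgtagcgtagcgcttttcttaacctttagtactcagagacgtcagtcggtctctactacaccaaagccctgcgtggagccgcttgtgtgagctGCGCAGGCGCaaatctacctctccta
Ndufb11: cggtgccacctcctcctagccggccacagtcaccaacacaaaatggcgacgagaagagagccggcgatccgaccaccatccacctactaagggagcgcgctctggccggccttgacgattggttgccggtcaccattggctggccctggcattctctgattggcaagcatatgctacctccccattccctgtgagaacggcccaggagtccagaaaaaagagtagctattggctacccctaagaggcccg
The NRF1 consensus, given by its name and by its matches in capitals, stood in 7 of 33 subunit promoters (21.2%), against 4.6% of all promoters in the table and 10.7% of those of tested genes. The entries of Ndufa5 overlap and hold the same site, so by gene the count was 6 of 31. The CRE stood in 9.09% of subunit promoters, against 1.79% of all and 3.04% of those of tested genes. The ETS letters CCGGAAG, which GABP can bind, stood in 12.1%, against 8.86% of all and 17.8% of those of tested genes. The YY1 letters ATGGCGG, which can also be read as a start codon with its next codon, stood in 27.3%, against 4.05% of all and 8.35% of those of tested genes. Here the overlapping entries of Ndufa7 hold the same site, and by gene the count was 8 of 31. Among the 10 called subunits with a promoter, 2 held NRF1, 1 the ETS letters, 3 YY1 and 1 the CRE. A match describes the letters of this window only.

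In heterozygous animals the subunits lay on both sides of wild type. Of the 34 subunits, 17 lay below and 17 above wild type, with a median log2 difference of -0.003 and a range of -0.20 to 0.12. Of all tested genes, 48.3% lay below 0. No subunit was called (0 of 34, limma, smallest adjusted p = 0.994), and 0% of all tested genes were called. At an unadjusted p under 0.05 there was 1 subunit, against 3.77% of all tested genes, and limma without moderated variances also called 0. That subunit was Ndufb10, a distal accessory subunit. Ndufb10 read 5.11, 5.38, 5.18, 5.40 and 5.30 in null arrays 1 to 5, 5.46, 5.21, 5.20, 5.38 and 5.42 in heterozygous arrays 1 to 5, and 5.70, 5.63, 5.66, 5.24 and 5.46 in wild-type arrays 1 to 5 (log2 signal). The heterozygous and wild-type arrays overlapped, and the difference was -0.20 ± 0.0885 (SE, unadjusted p = 0.0337). No subunit had all heterozygous arrays below all wild-type arrays (0 of 34), against 0.397% of all tested genes. The 95% intervals of the 34 differences stretched between -0.39 and 0.33. That of Ndufb11 was -0.13 to 0.12, which leaves out the difference of -0.36 seen in null animals, while that of Ndufb10 reached -0.39.

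**Figure D3:**
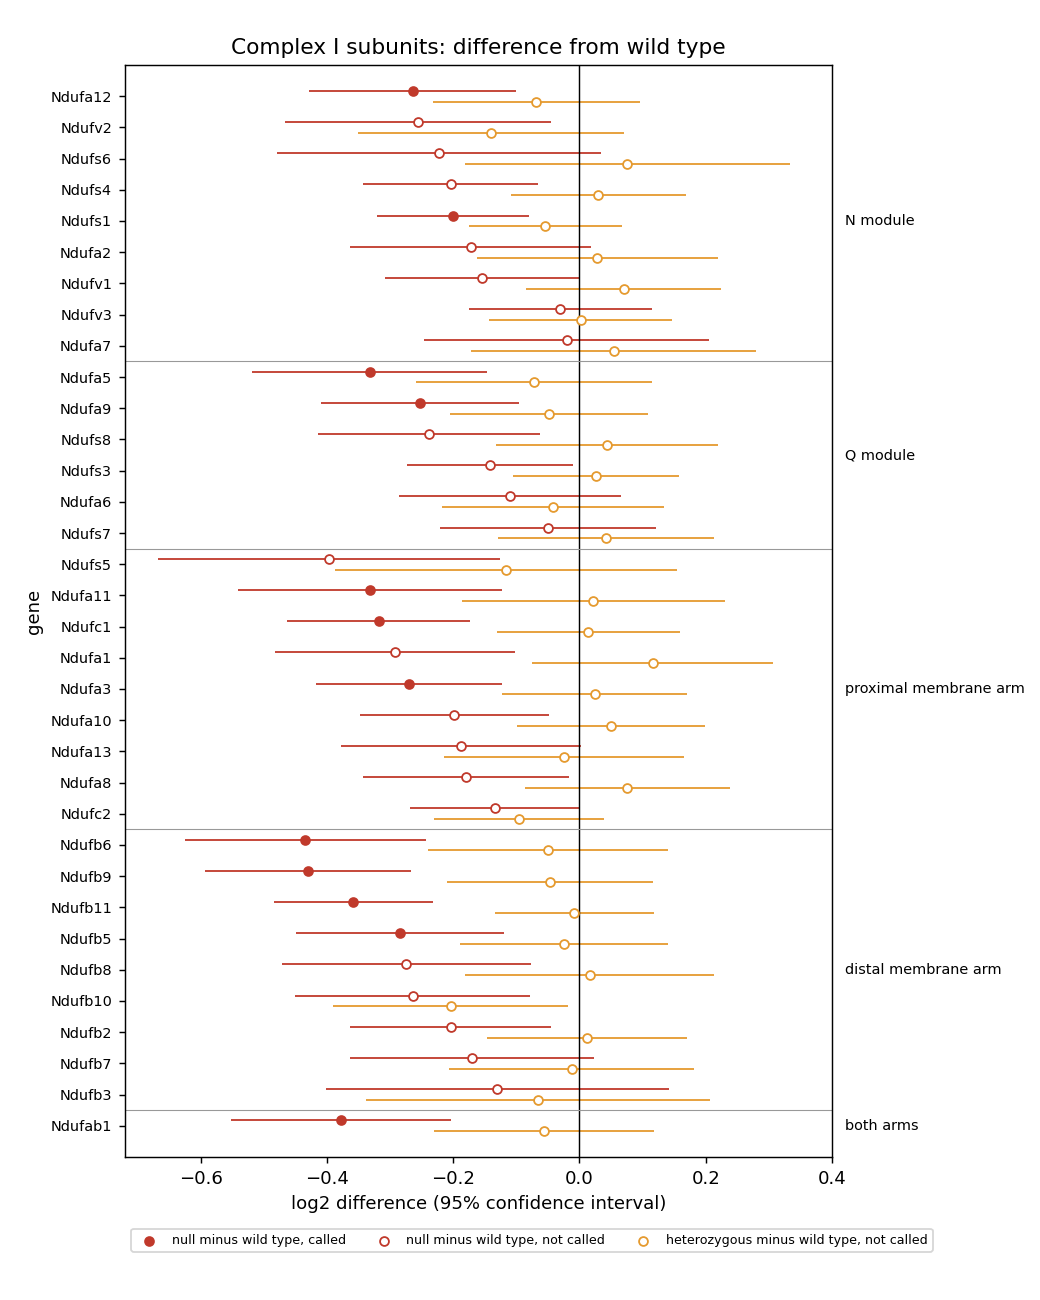
Log2 difference of each subunit from wild type with its 95% confidence interval, null minus wild type in red (filled where called) and heterozygous minus wild type in orange, by module. All red points lie at or below -0.02, and the orange points lie between -0.20 and 0.12, on both sides of 0.

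Against heterozygous animals, null animals again had a lower mean for all 34 subunits, where 47.4% of all tested genes lay below 0. The median difference was -0.23, and 12 subunits were called lower and 0 higher, against 3.61% and 4.32% of all tested genes. At an unadjusted p under 0.05 there were 24 subunits, against 25.8% of all tested genes. Every null array lay below every heterozygous array for 7 of 34 subunits, against 2.73% of all tested genes. Both comparisons use the same null arrays, so their values are given side by side and are not separate evidence. Ndufa1 had the largest difference from heterozygous animals, -0.41 (limma adjusted p = 0.0129), beside -0.29 from wild type. Ndufs4, an accessory subunit of the N module whose loss in mice gives a Leigh-like encephalopathy, had -0.23 (adjusted p = 0.0386) beside -0.20. Ndufs8 had -0.28 (adjusted p = 0.0464) beside -0.24, and Ndufa10 had -0.25 (adjusted p = 0.0408) beside -0.20. Ndufa5, Ndufs1, Ndufa12 and Ndufa9, called against wild type, differed from heterozygous animals by -0.26, -0.15, -0.20 and -0.20 and did not pass. Without null arrays 1 and 5, 2 subunits were called, and without heterozygous array 1, whose neuron markers averaged 1.59 above the wild-type mean, 6 were. Of all tested genes, 3.28% and 4.51% were called in these fits, against 7.93% with all arrays.

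The heterozygous mean was also set against the midpoint of null and wild type, which is where an additive effect of allele number would put it. It lay above the midpoint for 30 of 34 subunits, with a median of 0.11, while 50.5% of all tested genes lay below it. No subunit passed (0 of 34, limma, smallest adjusted p = 0.231), where 0.0596% of all tested genes did, and limma without moderated variances called 0. At an unadjusted p under 0.05 there were 12 subunits, but the share of all tested genes was not computed for the midpoint. The largest value was that of Ndufa1, 0.26 above the midpoint. These differences share their arrays with the comparisons above.

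The subunit levels differed among null animals. The median deviation of the 34 subunits from their wild-type means was -0.39, -0.076, -0.279, -0.205 and -0.243 in null arrays 1 to 5. It was 0.084, -0.079, 0.026, -0.004 and -0.081 in heterozygous arrays 1 to 5, and 0.126, -0.013, 0.089, -0.126 and -0.094 in wild-type arrays 1 to 5. Null arrays 1, 3, 4 and 5 lay below every other array, and null array 2 lay among the heterozygous and wild-type ones. In null arrays 1 to 5, 30, 8, 29, 22 and 24 of the 34 subunits lay below the lowest wild-type array. Null array 1 held the lowest value of all 15 arrays for 15 subunits and null array 5 for 12. These counts per array were not made over all tested genes, so no background share stands beside them. The median deviation of all tested genes ran from -0.022 to 0.038 in the null arrays. Without null array 2, 23 subunits were called against wild type and 22 against heterozygous animals, while the share of all tested genes called in either direction was 14.1% and 18%, against 7.73% and 7.93% with all arrays. The rise in calls was thus shared by genes at large. The subunits also varied within genotypes, with a median SD of 0.152 in null, 0.097 in heterozygous and 0.134 in wild-type animals, against 0.138, 0.101 and 0.0945 for all tested genes. Wild-type arrays 1 and 3 were high and 4 and 5 low for most subunits.

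Each sample also carries a label of the form number, dot, number, whose meaning is not given. Null array 2 and heterozygous array 5 share the number before the dot, 460, and between them the median subunit difference was -0.01, with 17 of 34 subunits below 0. That is the only such number with a null array beside another genotype, so genotype and label number cannot be told apart for the other null arrays. Within number 429 the heterozygous minus wild-type median was -0.145, with 31 of 34 below 0, and within number 432 it was 0.02, with 15 of 34 below 0. With the label number as a covariate, 1 subunit, Ndufb11, was called in each null comparison, where 2.55% (against wild type) and 1.94% (against heterozygous) of all tested genes were called, so that 1 of 34 is near the background.

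The other genes of oxidative phosphorylation were set beside complex I. Of 17 assembly factors, 3 fell in null against wild-type animals and 0 rose (median -0.16). They were Dmac2 (-0.30, limma adjusted p = 0.036), Tmem70 (-0.29, adjusted p = 0.0378) and Ndufaf4 (-0.29, adjusted p = 0.0474). Of the subunits encoded by mitochondrial DNA, ND3 alone had a probe set, with 11.22 ± 0.346 in null and 11.5 ± 0.104 in wild-type animals (SD, n = 5 each), and it was not called (-0.28, adjusted p = 0.201). ND3 was lowest in null array 2, 0.83 below the wild-type mean, the null array in which the nuclear subunits were highest.

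Of 9 nuclear subunits of complex III, 7 fell and 0 rose in null animals (median -0.28), with Uqcr10 at -0.32 (limma adjusted p = 0.00781) and the iron-sulfur protein Uqcrfs1 at -0.36 (adjusted p = 0.0115). Of 10 of complex IV, 3 fell and 0 rose (median -0.25), among them Cox5b at -0.31 (adjusted p = 0.00693) and Ndufa4 at -0.24 (adjusted p = 0.0139). Of 14 of ATP synthase, 4 fell and 0 rose (median -0.15), and Atp5g1, a source of the membrane ring, had -0.53 (adjusted p = 0.0142). Complex II had 0 of 4 called and 2 at an unadjusted p under 0.05 (median -0.15), and limma without moderated variances also called 0. Of 19 mitochondrial genes outside the respiratory chain, 4 fell and 0 rose (median -0.13), with the import channel Timm23 at -0.36 (adjusted p = 0.00477). These lists were read against a median of 0.01 and a share of 3.56% called lower over all tested genes. Without null arrays 1 and 5, 1 gene of complex III, 0 of complex IV, 1 of ATP synthase, 0 assembly factors and 2 of the mitochondrial genes outside the chain were called. With the label number as a covariate, 0 genes of complex III and 0 assembly factors were called, where 2.55% of all tested genes were.

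**Figure D4:**
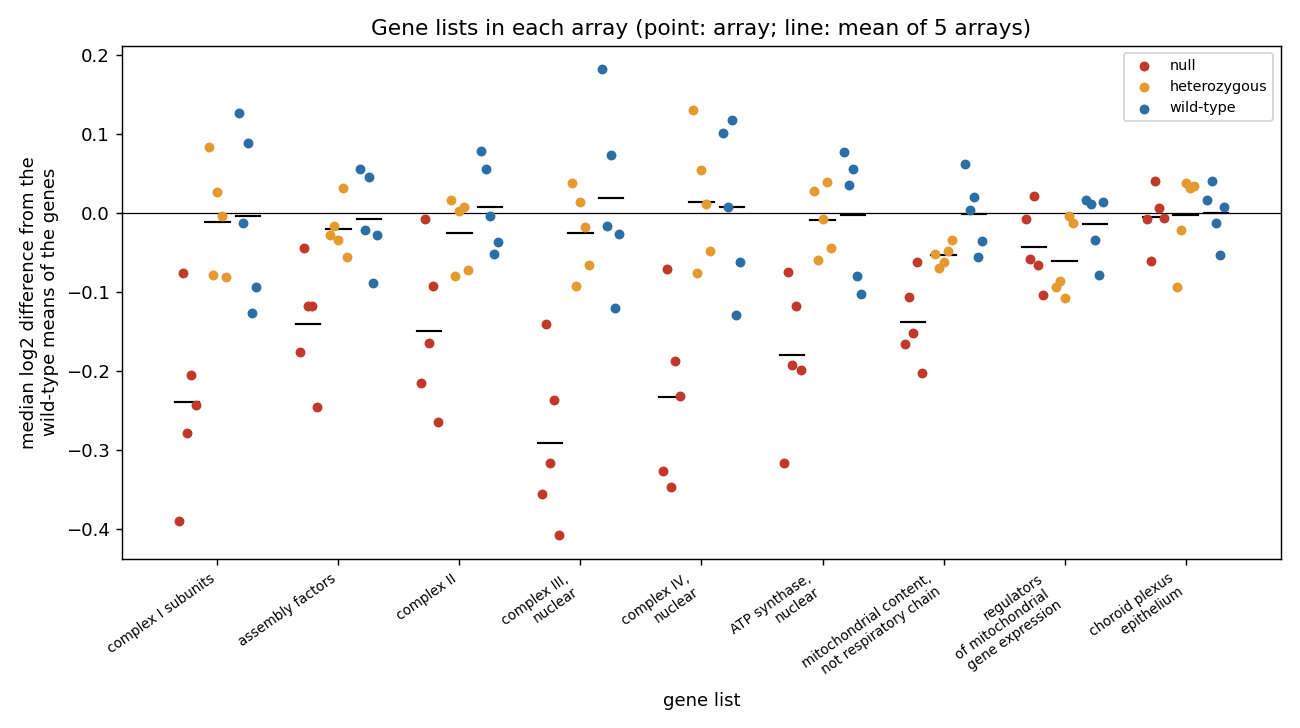
Median log2 deviation from the wild-type means over the genes of each list, 1 point per array, with the mean of the 5 arrays of a genotype as a line (null left, heterozygous middle, wild-type right). The null points of complex I run from -0.39 to -0.076, and those of the choroid plexus epithelium markers lie around 0.

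Of 13 tested regulators of mitochondrial gene expression, 0 were called between null and wild type (limma; 2 at an unadjusted p under 0.05, and 0 called without moderated variances), with a median of -0.02. Nrf1, the factor whose motif is printed above, averaged 6.34 ± 0.345 in null and 6.00 ± 0.194 in wild-type animals (SD, n = 5 each), a difference of 0.34 (adjusted p = 0.113). Ppargc1a, a coactivator of mitochondrial biogenesis, differed by -0.28 (adjusted p = 0.133) and Esrra, a nuclear receptor it works with, by -0.17 (adjusted p = 0.251).

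Markers of the cell types in the dissected tissue were read beside the subunits. Of 12 epithelial markers, 2 fell (Kcne2 at -0.24 and Kcnj13 at -0.23) and 1 rose (Aqp1 at 0.34) in null against wild-type animals, with a median of 0.005 (limma adjusted p = 0.0255, 0.027 and 0.00254). Of 4 tested endothelial markers 2 rose, Kdr at 0.49 and Cdh5 at 0.55, and the list's mean level ran from 5.94 to 6.37 in null and 5.66 to 6.11 in wild-type arrays. Of 6 stromal markers 2 rose, Dcn at 0.68 and Pdgfra at 0.79, and the mean level ran from 7.93 to 8.41 in null and 7.63 to 8.0 in wild-type arrays. Of 5 astrocyte markers 0 were called (median 0.49, 2 at an unadjusted p under 0.05), and their mean level ran from 6.06 to 7.03 in null and 6.01 to 6.28 in wild-type arrays. The neuron, oligodendrocyte and macrophage lists had 0 of 3, 0 of 5 and 0 of 3 tested markers called, and 0 at an unadjusted p under 0.05. The part of these cell types in the lower subunit signals was not tested. The mean level of the epithelial markers differed by less than 0.03 between any null array and the wild-type mean.

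**Figure D5:**
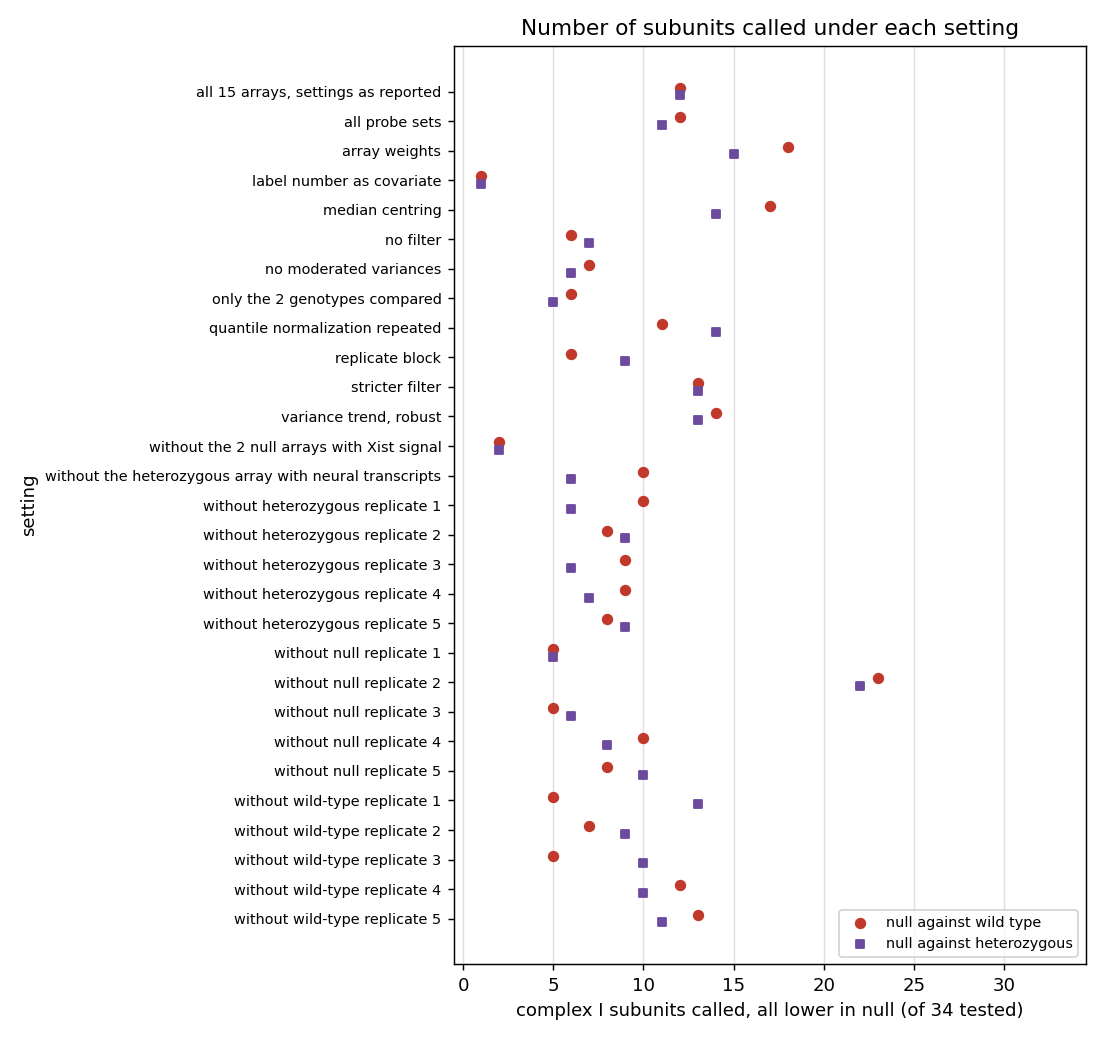
Number of the 34 subunits called under each setting, null against wild type as circles and null against heterozygous as squares, all of them lower in null. The counts run from 1 to 23 and are lowest with the label number as a covariate and without the 2 null arrays with Xist signal.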

How the data were processed

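RNA of 15 choroid plexus samples was measured on single-colour Affymetrix arrays, from 250 ng of total RNA each, per the labels. The deposited table holds log2 values, made by the authors with Affymetrix Expression Console 1.1 and RMA (background correction, quantile normalization between arrays, summary of probes), per the submitters' processing notes. Base 2 was inferred from their range of 1.57 to 13.89, as no source here states it. RMA removes differences in total signal between arrays. Log2 differences near background are compressed.

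Names came from the platform's annotation, which can be old. It gave 1 symbol to 21789 of 35556 probe sets, several to 1621, and did not list 12146. Per gene, the probe set with the highest mean was kept, and genes above 5.33, the median of all such values, in at least 5 arrays were tested (10069 genes). Groups came from the genotype labels. Linear models in limma 3.58.1 (R 4.3.3) were fitted over the 15 arrays, with 12 residual degrees of freedom, and Benjamini-Hochberg adjusted p-values under 0.05 over all tested genes were called. Each array is labelled as a mouse of its own, and nothing says whether the mice were littermates; their number limits the precision. No arrays were copies. On simulated data for null against wild type over 10069 genes, the fit recovered 14% of genes with a log2 change of 0.2, 58% at 0.3 and 86% at 0.5, and 2.31% of calls were false. Noise was drawn separately for each gene, and 50 genes were changed at each size. In the real data the subunits moved together within arrays and 778 genes were called, so these shares need not hold there.

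The subunits, gene lists, tests and alternatives were chosen with earlier results of these data known. Subunits were ordered by module. Values in every null and wild-type array are given for those called between null and wild type, and for Ndufb11 and Ndufb9 also in the heterozygous arrays. Values in all 15 arrays are given for the smallest p among the rest, the most positive null difference and the smallest heterozygous p. For other lists up to 3 genes by p were eligible. The alternatives were other filters, probe sets, scalings, weights, variance models, covariates and left-out arrays.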

Additional observations from a re-analysis of the deposited data

Results flagged for a closer look

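Of 108 groups of 5 arrays tested for a single array far from the others (Dixon's test at the 95% level), 4 stood out, where chance gives about 1 in 20, or 5.4. Ndufa9 read 9.22 in null array 1, against 9.49 to 9.56 in the other null arrays. Ndufb7, a distal accessory subunit that was not called, read 9.38 in null array 2, against 8.94 to 9.03 in the other null arrays. Ndufv3, an N-module accessory subunit that was not called, read 7.43 in null array 4, against 7.22 to 7.25 in the other null arrays. Ndufab1 read 9.10 in wild-type array 1, against 8.78 to 8.87 in the other wild-type arrays. Without that wild-type array, Ndufab1 was still called against null.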

How the results depend on the processing

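Every subunit lay below 0 in 22 of the 28 alternatives for each null comparison, at least 31 of 34 did in all of them, and no subunit was called higher in any. Many of these signs were fixed in advance. Other filters, variance models, the replicate block or a left-out array of the third genotype cannot change the fitted difference between the other genotypes. The fit without heterozygous array 1 is also the one without the array with neural transcripts. How many passed was less stable, from the 12 reported for each comparison. For null against wild type the count was 1 with the label number as covariate, 6 with no filter, 7 with no moderated variances, 6 with only the 2 genotypes compared, 6 with the replicate block, and 2 without the null arrays that carry Xist. The share of all tested genes called moved the same way, from 7.73% as reported to 2.55%, 2.62%, 4.9%, 4.58%, 5.14% and 3.93% in these settings. For null against heterozygous it was 1 with the label number as covariate, 7 with no filter, 6 with no moderated variances, 5 with only the 2 genotypes compared, 2 without the null arrays that carry Xist, and 6 without heterozygous array 1 (the array with neural transcripts); with the replicate block it was 9. There the share of all tested genes was 7.93% as reported and 1.94%, 2.51%, 4.66%, 3.41%, 3.28% and 4.51% in the first 6 of these settings. What moved the counts was not tested. Without the null arrays that carry Xist the median difference also moved, from -0.23 to -0.194 against wild type. Against heterozygous animals it moved from -0.229 to -0.173. With the label number as covariate these medians were -0.191 and -0.178. Leaving out 1 array at a time gave 5 to 23 and 5 to 22 called. For null against wild type it was 5 without null array 1, null array 3, wild-type array 1 or wild-type array 3, 7 without wild-type array 2 and 23 without null array 2. Ndufb11, Ndufb9, Ndufb6, Ndufc1 and Ndufab1 were called against wild type in all 15 of these fits. Heterozygous against wild type and the midpoint gave 0 to 0 in the same fits. Median differences ran from -0.281 to -0.192 (null against wild type), -0.031 to 0.026 (heterozygous against wild type) and -0.267 to -0.202 (null against heterozygous). The replicate numbers of the titles did not pair the arrays: 4 of 15 same-numbered pairs had correlated deviations over 0.1 (r from -0.253 to 0.238), and 1 of 15 arrays correlated best with its own number. At 5 mice per genotype, differences near 0.2 were mostly missed in the simulated data, so a subunit that was not called is not shown to be unchanged.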
